A study of Mus musculus with 2 samples.

Results

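Wnt ligands and secreted Wnt inhibitors were followed in the centre of healing large wounds through 10 genes, which are the ligands Wnt4, Wnt5a and Wnt10a, the secreted inhibitors Sfrp1, Sfrp2, Sfrp4, Dkk2, Dkk3 and Wif1, and the target gene Axin2. The genes were taken by symbol from the 27998 genes of the count matrices, and each symbol named 1 row. The samples were 2 single-cell RNA libraries from the dorsal skin of male wild-type C57BL/6J mice, 6 to 8 weeks old, with a circular wound of 1.8 cm. In TLR9agonist_LW the wounds received ODN2395, a CpG oligonucleotide that activates Toll-like receptor 9 (TLR9), on days 0, 3 and 6 at 4 μg each time, and in WT_LW they received PBS according to the sample labels and the methods, or a control oligonucleotide according to a figure legend of the study. Punches of 5 mm from the wound centre were taken 2 days after scab detachment, and the cells of several mice (6 or 5 per group, depending on the section of the study) were pooled before loading, after epidermis and dermis had been separated with enzymes, dissociated and recombined. Each group was therefore 1 library, no difference below has a replicate check, and a difference between the pools of mice or the preparations cannot be told apart from the treatment. Every interval is a 95% interval for counting error only, and ratios compare these libraries.

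Wnt proteins are secreted lipid-modified ligands that bind Frizzled receptors together with LRP5 and LRP6 or with ROR and RYK receptors. In the canonical branch the signal stabilises beta-catenin, which then works with TCF and LEF factors on target genes such as Axin2. Secreted Frizzled-related proteins (Sfrp genes) and Wif1 bind the ligands, whereas Dickkopf proteins (Dkk genes) act on the LRP coreceptors, with Dkk3 the divergent member. In skin, epidermal Wnt ligands and the Wnt response of the underlying dermis are required for hair follicles to form, and this is why the pathway is followed in wounds that can regenerate follicles.

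Levels are given as CPM, the unique molecular identifiers (UMIs) of a gene per 1000000 UMIs of all cells of a type in a library. Cells were assigned to a type by a gate on their own marker UMIs, described under the processing, which gave 1083 and 2691 fibroblasts, 526 and 1223 keratinocytes, 490 and 378 pericytes, 618 and 356 endothelial cells, 764 and 465 Schwann cells, 2993 and 2876 T cells, and 1152 and 796 macrophages or dendritic cells in WT_LW and TLR9agonist_LW, respectively. The libraries held 11443 and 13206 cells after filtering, with medians of 5520 and 6310.5 UMIs and of 2.92% and 2.00% mitochondrial UMIs, and 47 barcodes occurred in both. Cells in no gate (2398 and 2415) or in several gates (1086 and 1360) were not typed. Markers of other cell types, which free RNA can bring into any cell, were counted at different levels in the libraries. In macrophages and dendritic cells the 10 keratinocyte markers summed to 535 CPM in WT_LW and 2266 CPM in TLR9agonist_LW. The 6 fibroblast markers summed to 734 and 1430 CPM there. The 7 neutrophil markers, of which 2 were higher in TLR9agonist_LW, summed to 111 and 1013 CPM. Lymphatic endothelial markers summed to 6.99 and 14.4 CPM, and melanocyte markers to 0.247 and 0.275 CPM. Lower in TLR9agonist_LW were the sums for T cells (58.3 and 42.0 CPM), mast cells (50.4 and 38.9), endothelial cells (60.3 and 31.5), pericytes (59.2 and 27.1) and Schwann cells (59.0 and 39.6). The level of a gene in these cells is therefore given below as a reading of the background. The median gene had a log2 ratio of TLR9agonist_LW to WT_LW below 0 in every type reported, at −0.28 in fibroblasts, −0.53 in keratinocytes, −0.43 in pericytes, −0.46 in endothelial cells, −0.18 in Schwann cells, −0.26 in T cells and −0.20 in macrophages or dendritic cells, and log2 ratios relative to this median are given where they alter the reading.

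Each of the genes other than Wif1 was counted above the background in at least 1 cell type. Wnt4 and Wnt10a were highest in keratinocytes, Wnt5a in pericytes and then fibroblasts, Sfrp1 in Schwann cells, Sfrp2, Sfrp4 and Dkk3 in fibroblasts, and Dkk2 in endothelial cells and fibroblasts, while Axin2 was spread over pericytes, T cells, Schwann cells, fibroblasts and keratinocytes. Between the libraries, the ligands and Axin2 were lower in the keratinocytes of TLR9agonist_LW, whereas Wnt5a, Dkk2 and Axin2 were higher in its fibroblasts. Relative to the median gene of keratinocytes, Wnt4 was at −0.84, Axin2 at −0.81, Wnt10a at −0.26 and Wnt5a at −0.15. Of the 9 genes counted in fibroblasts (at least 50 UMIs over both libraries), 0 were at least 2-fold higher, where 3.94% of all 12611 genes counted were, and 0 were at least 2-fold lower, where 7.07% were. Their median log2 ratio was 0.07 and 6 of 9 were above 0. Of the 7 genes counted in keratinocytes, Wnt4, Sfrp1 and Axin2 were at least 2-fold lower, where 20.5% of all genes counted were, and Sfrp2 was at least 2-fold higher, where 2.47% were. Their median was −0.80, and 1 of 7 lay above the median gene. With so many genes lower in keratinocytes, the count of 3 of 7 is read beside that background.

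In the remaining types few of the 10 genes passed 2-fold. In pericytes 0 of 5 were higher, beside 3.6% of all genes counted, and 2 of 5 were lower, beside 12.6%. In endothelial cells 0 of 2 were higher (3.08% of all genes counted) and 0 of 2 lower (16.7%). In Schwann cells 1 of 5 was higher (2.9%) and 0 of 5 lower (3.05%), and in T cells 0 of 5 were higher (4.14%) and 0 of 5 lower (8.53%). In macrophages or dendritic cells 1 of 3 was higher (3.46%) and 0 of 3 lower (3.43%). Over all cells 0 of 10 were higher (3.87%) and 1 of 10, Wif1, was lower (11.8%). That call rests on 1 cell, described further on, which held 166 of the 190 Wif1 UMIs of WT_LW. Among subsets described further on, Crabp1, Prss35 and Grem1 fibroblasts had 1 of 8 higher (3.35%) and 0 of 8 lower (3.54%), and Clec3b, Angptl1 and Cilp fibroblasts had 0 of 7 higher (4.74%) and 0 of 7 lower (7.09%). Basal keratinocytes had 0 of 5 higher (3.39%) and 2 of 5 lower (8.29%), and differentiated keratinocytes had 0 of 3 higher (3.62%) and 2 of 3 lower (15.8%). Shares over so few genes are counts and not results about the group.

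**Figure D1:**
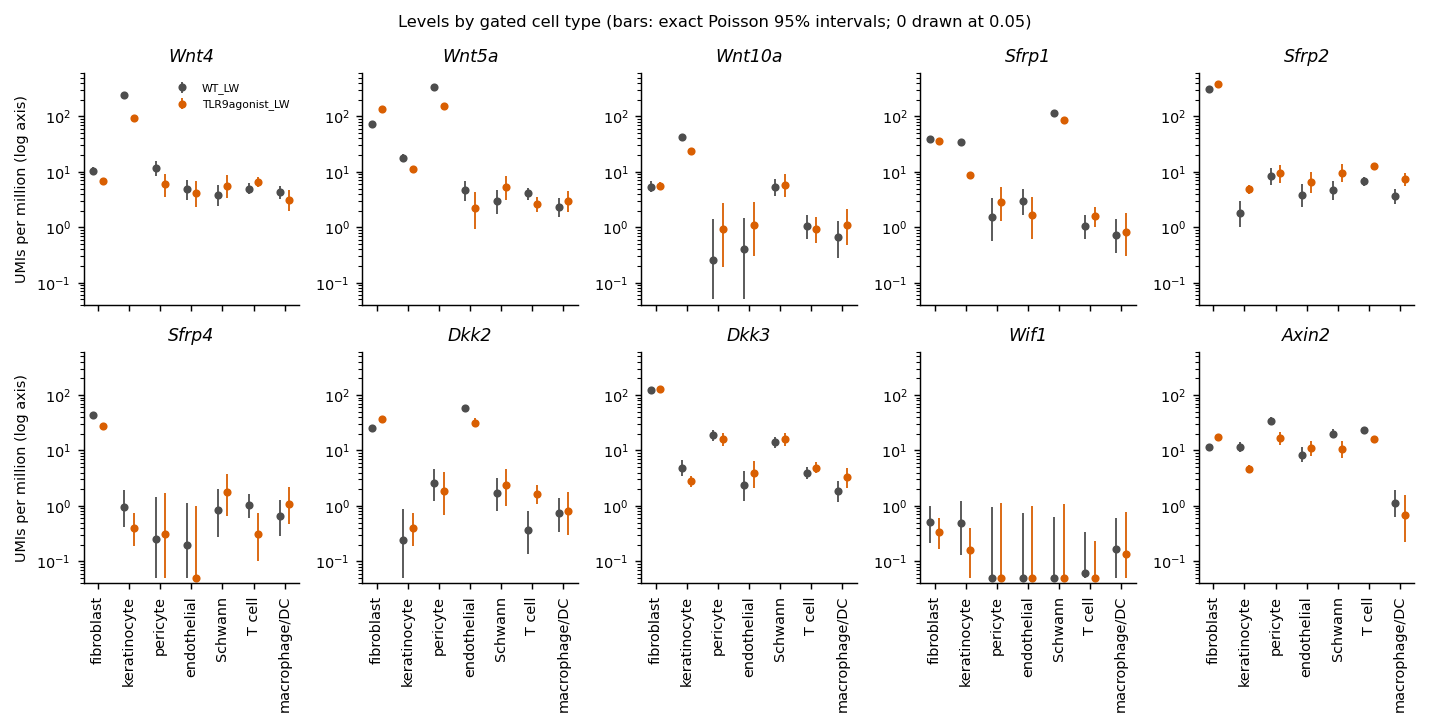
Level of each of the 10 genes by gated cell type, in CPM on a log axis, in WT_LW (grey) and TLR9agonist_LW (orange); bars are exact Poisson 95% intervals and levels of 0 are drawn at 0.05. Wnt4 stands highest in keratinocytes (245 and 94.6 CPM) and Wnt5a in pericytes (335 and 153 CPM), and Wif1 stays below 1 CPM in every type.

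**Figure D2:**
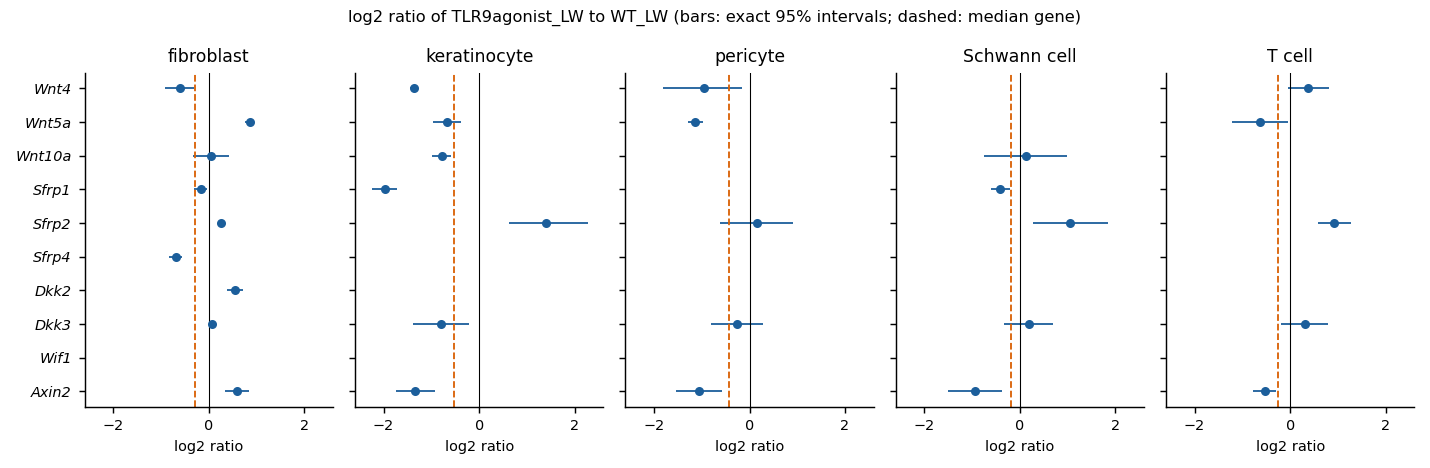
log2 ratio of TLR9agonist_LW to WT_LW for each gene counted in 5 gated types, with exact 95% intervals; the dashed line is the median gene of the type and a missing point is a gene under 50 UMIs. Wnt5a lies at 0.86 in fibroblasts and at −1.13 in pericytes, and Axin2 at 0.58 in fibroblasts and −1.34 in keratinocytes.

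Promoters are printed for Dkk2, which had the largest ratio in the fibroblast subsets among those of the 10 genes that were counted there, for Sfrp2, a fibroblast inhibitor on the same chromosome that was higher in the same subsets, and for Axin2, the target gene. RefSeq sequences of GRCm38.p6 were given for 5 of the 10 genes, and the 250 bases before the annotated start are shown 5′ to 3′ on the plus strand, at chr3:132085042-132085291 for Dkk2, chr3:83766071-83766320 for Sfrp2 and chr11:108920099-108920348 for Axin2. Capitals mark a TATAAA box motif.
Dkk2: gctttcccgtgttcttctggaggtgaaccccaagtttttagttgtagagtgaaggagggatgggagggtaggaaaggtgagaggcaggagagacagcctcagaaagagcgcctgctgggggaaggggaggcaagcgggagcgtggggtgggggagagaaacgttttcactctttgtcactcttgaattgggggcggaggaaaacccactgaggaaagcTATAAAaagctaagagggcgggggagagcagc
Sfrp2: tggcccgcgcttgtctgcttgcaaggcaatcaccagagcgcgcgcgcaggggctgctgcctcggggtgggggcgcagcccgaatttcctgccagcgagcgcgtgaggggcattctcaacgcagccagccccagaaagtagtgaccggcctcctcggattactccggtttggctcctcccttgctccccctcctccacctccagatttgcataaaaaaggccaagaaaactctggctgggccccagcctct
Axin2: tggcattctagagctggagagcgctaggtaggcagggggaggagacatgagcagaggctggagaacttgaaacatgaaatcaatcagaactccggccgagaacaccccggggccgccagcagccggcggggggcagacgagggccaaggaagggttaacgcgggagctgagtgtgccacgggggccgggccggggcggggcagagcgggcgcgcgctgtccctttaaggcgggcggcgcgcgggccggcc
TATAAA was searched on both strands and was found in the Dkk2 window and in neither of the other windows shown, and 12.4% of 32851 promoter windows of the same length hold it. The TCF and LEF type motifs CTTTGAA or CTTTGAT, held by 7.48% of all windows, and AACAAAG, held by 5.03%, were not found in these windows. The GC content was 55.6% for Dkk2, 63.6% for Sfrp2 and 69.2% for Axin2, beside a median of 52.4% over all windows.

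Among the ligands Wnt4, Wnt5a and Wnt10a, Wnt4 (ENSMUSG00000036856, chromosome 4, 137277489 to 137299726 of GRCm38) had the highest level in keratinocytes. Wnt4 is known in skin as a ligand made by epidermal cells. It had 2017 UMIs or 245 CPM in the keratinocytes of WT_LW and 2380 UMIs or 94.6 CPM in those of TLR9agonist_LW, a log2 ratio of −1.37 (−1.46 to −1.28), or −0.84 relative to the median gene. The background was 4.28 and 3.16 CPM in macrophages or dendritic cells, and fibroblasts, pericytes, T cells, Schwann cells and endothelial cells lay between 3.78 and 11.5 CPM, with intervals that overlapped those of their neighbours in the order. The keratinocytes of the libraries were unequally spread over 4 Leiden clusters, with 65 and 817, 219 and 399, 378 and 188, and 22 and 134 cells, and the ratio compares cells of partly different clusters. These clusters were made from both libraries together without a correction between libraries. Whether library-wide differences separated them was not tested. The depth of the keratinocytes differed as well, with medians of 10787 UMIs in WT_LW and 20950 in TLR9agonist_LW. Without thinning, 52.3% and 58.5% of keratinocytes held a Wnt4 UMI. Keratinocytes held 53.7% of all Wnt4 UMIs in WT_LW and 60.6% in TLR9agonist_LW, and cells in several gates held a further 33.4% and 26.9%. All cells of WT_LW together held 3753 Wnt4 UMIs and those of TLR9agonist_LW 3929, a log2 ratio of CPM of −0.38 that was 0.02 after the median gene was set to 0, while keratinocytes gave 8.55% of all UMIs in WT_LW and 19.2% in TLR9agonist_LW.

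Within keratinocytes, Wnt4 was concentrated in basal cells. Basal interfollicular cells (101 and 275 cells) were gated on Krt5, Krt14, Col17a1, Itga6 and Itgb4, and differentiated interfollicular cells (149 and 410 cells) on Krt1, Krt10, Krtdap, Sbsn and Lypd3. The cut-offs of these sub-gates were set within each library. Basal cells had 597 CPM of Wnt4 in WT_LW, against 167 CPM in TLR9agonist_LW, a log2 ratio of −1.84 (−1.96 to −1.72), and 0.413% of all genes counted in basal cells had a lower ratio. Differentiated cells had 145 and 66.5 CPM, a log2 ratio of −1.12 (−1.31 to −0.94). Keratinocytes in neither sub-gate had 109 and 76.0 CPM. The order of basal above differentiated cells held in both libraries, and the intervals of the libraries did not overlap in either sub-group. After each cell was thinned to 1500 UMIs, a Wnt4 UMI was seen in 52.5% of basal cells in WT_LW (42.2% to 62.7%) and in 19.9% in TLR9agonist_LW (15.3% to 25.1%). Without thinning these shares were 85.1% and 80.7%. In macrophages or dendritic cells the thinned share was 0.448% and 0.94%, and their median depths of 9736 and 8265 UMIs lay below the 20459 and 21157 UMIs of basal cells.

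Wnt10a (ENSMUSG00000026167, chromosome 1, 74791516 to 74804179), a ligand of the canonical branch with a known part in hair follicles and teeth, had the same source. It was at 41.7 CPM in the keratinocytes of WT_LW and 24.2 CPM in those of TLR9agonist_LW, a log2 ratio of −0.79 (−0.98 to −0.59), or −0.26 relative to the median gene. Basal cells had 116 and 69.7 CPM, a log2 ratio of −0.73 (−0.96 to −0.50). Differentiated cells had 15 and 17 UMIs, or 5.41 and 1.78 CPM, so within keratinocytes Wnt10a was mostly a transcript of basal cells. In the thinned basal cells a Wnt10a UMI was seen in 19.2% and 11.4%, with intervals of 12.0% to 28.3% and 7.88% to 15.8% that overlap. Fibroblasts (5.43 and 5.6 CPM) and Schwann cells (5.33 and 5.86 CPM) stood above the background of 0.658 and 1.10 CPM, and their log2 ratios of 0.04 (−0.33 to 0.43) and 0.14 (−0.75 to 0.99) included 0. Over the 26 levels of 9 types and 4 sub-groups in both libraries, Wnt4 and Wnt10a had a Pearson correlation of 0.83 on the log2(CPM + 1) scale, where the points share libraries, depth and cells.

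Wnt5a (ENSMUSG00000021994, chromosome 14, 28504750 to 28527448), the ligand best known for signalling through ROR receptors without beta-catenin, had 2 mesenchymal sources that differed between the libraries in opposite directions. Fibroblasts had 1172 UMIs or 74.0 CPM in WT_LW and 4385 UMIs or 134 CPM in TLR9agonist_LW, a 1.81-fold higher level and a log2 ratio of 0.86 (0.77 to 0.95), or 1.14 relative to the median gene. Pericytes had 1312 UMIs or 335 CPM in WT_LW and 492 UMIs or 153 CPM in TLR9agonist_LW, a log2 ratio of −1.13 (−1.28 to −0.98), or −0.70 relative to the median gene. Pericytes thus stood above fibroblasts in both libraries, by a wide gap in WT_LW and a narrow one in TLR9agonist_LW, and the background was 2.30 and 3.02 CPM. The same directions were seen in the share of cells. After thinning, a Wnt5a UMI was seen in 10.5% of fibroblasts in WT_LW (8.66% to 12.6%) and 18.7% in TLR9agonist_LW (17.1% to 20.3%). In pericytes it was seen in 32.6% (28.4% to 37.0%) and 17.8% (14.0% to 22.0%). The thinned share in macrophages or dendritic cells was 0.179% and 0.805%. Without thinning, 46.3% and 57.6% of fibroblasts and 61.6% and 43.9% of pericytes held a UMI.

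Fibroblasts too were unequally spread over Leiden clusters, the most unequal with 77 cells of WT_LW and 899 of TLR9agonist_LW. Of the Leiden clusters named as pericytes, 1 held 628 and 559 cells, and another held 736 and 45 cells with a median of 1004 UMIs. How the gated pericytes were spread over these clusters was not tested. The share of Wnt5a transcripts that each type held differed as well. Fibroblasts held 28.9% of all Wnt5a UMIs in WT_LW (27.5% to 30.3%) and 65.3% in TLR9agonist_LW (64.1% to 66.4%). Pericytes held 32.3% (30.9% to 33.8%) and 7.32% (6.71% to 7.97%). These shares also follow the cells recovered, as fibroblasts were 9.46% and 20.4% of all cells and pericytes 4.28% and 2.86%. Over all cells Wnt5a was at 42.1 and 51.3 CPM. The 7 pericyte markers, which were used to gate these cells, themselves summed to 17807 CPM in WT_LW and 11867 CPM in TLR9agonist_LW with 0 of 7 higher, and their part in the difference was not tested. The 6 fibroblast markers summed to 4168 and 3489 CPM in pericytes with 4 of 6 higher, beside 55147 and 69776 CPM in fibroblasts. In a split added after the values were seen, pericytes with a UMI of the smooth muscle myosin Myh11 had 310 and 117 CPM of Wnt5a, and those without one had 428 and 265 CPM. Both subsets were lower in TLR9agonist_LW. Keratinocytes had 17.7 and 11.1 CPM of Wnt5a, a log2 ratio of −0.68 (−0.97 to −0.38), or −0.15 relative to the median gene. Basal cells had 37.3 and 18.0 CPM. T cells had 4.09 and 2.64 CPM, close to the background.

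**Figure D3:**
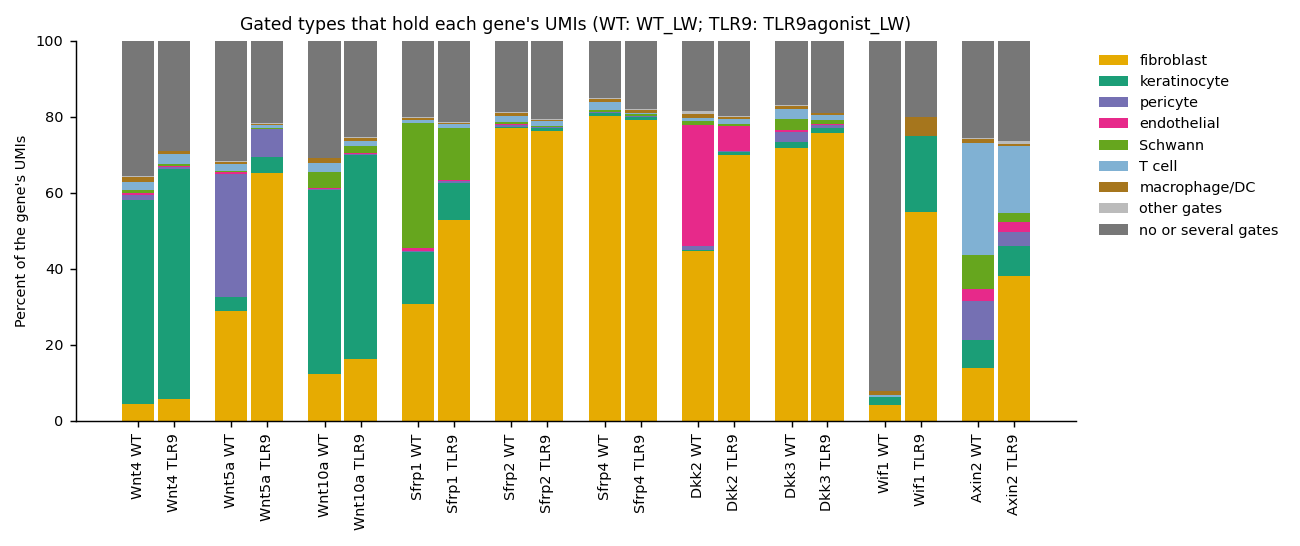
Share of each gene's UMIs held by each gated type, in percent of the gene's UMIs over all cells, for WT_LW (WT) and TLR9agonist_LW (TLR9). Fibroblasts hold 28.9% of Wnt5a UMIs in WT_LW and 65.3% in TLR9agonist_LW, where they are 9.46% and 20.4% of all cells. The Wif1 bar of WT_LW is mostly untyped because 1 cell holds 166 of 190 UMIs.

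Fibroblasts of both libraries were divided by 2 marker sets whose genes led fibroblast groups in earlier work on these data, Crabp1, Prss35 and Grem1 (268 and 827 cells) and Clec3b, Angptl1 and Cilp (191 and 455 cells). The cut-offs were set within each library. A gate on dermal papilla and condensate markers (Sox2, Corin, Hhip, Hey1, Sox18, Tbx18 and Alx4) took 0 fibroblasts in both libraries, with 2 cells of WT_LW 1 marker below the minimum, and how many such cells this gate would miss was not measured. Wnt5a was higher in Crabp1, Prss35 and Grem1 cells than in Clec3b, Angptl1 and Cilp cells. The former had 117 CPM in WT_LW, against 188 CPM in TLR9agonist_LW, a log2 ratio of 0.68 (0.54 to 0.83). The latter had 58.3 and 84.5 CPM, a log2 ratio of 0.54 (0.31 to 0.76). Fibroblasts in neither set had 58.4 and 125 CPM, so Wnt5a was higher in TLR9agonist_LW in each of the 3 subsets. Cycling fibroblasts (57 and 58 cells) had 67.6 and 137 CPM, and fibroblasts outside the cycling gate 74.6 and 134 CPM.

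**Figure D4:**
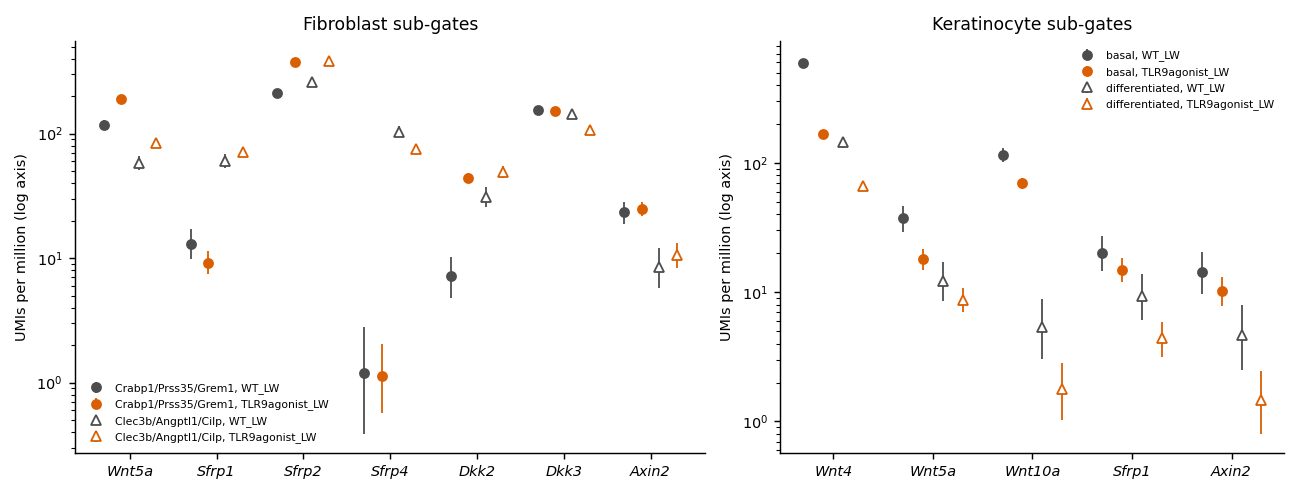
Levels in CPM on a log axis in the fibroblast sub-groups (left) and the keratinocyte sub-groups (right) of WT_LW (grey) and TLR9agonist_LW (orange), with exact Poisson 95% intervals. Dkk2 in Crabp1, Prss35 and Grem1 fibroblasts lies at 7.14 and 43.8 CPM, Sfrp4 is near 1 CPM in the same cells, and Wnt4 in basal keratinocytes lies at 597 and 167 CPM.

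Sfrp2 (ENSMUSG00000027996, chromosome 3, 83766321 to 83774316) encodes a Frizzled-related protein that binds Wnt ligands, and it had the most UMIs of the 10 genes. Fibroblasts had 4989 UMIs or 315 CPM in WT_LW and 12338 UMIs or 377 CPM in TLR9agonist_LW, a log2 ratio of 0.26 (0.21 to 0.31), or 0.54 relative to the median gene. The difference was unequal among fibroblasts. Crabp1, Prss35 and Grem1 cells had 211 and 377 CPM, a log2 ratio of 0.84 (0.73 to 0.94). Clec3b, Angptl1 and Cilp cells had 259 and 379 CPM, a log2 ratio of 0.55 (0.45 to 0.66). Fibroblasts in neither set had 397 and 377 CPM, so the subsets stood at different levels in WT_LW and at nearly the same level in TLR9agonist_LW. The UMIs came from 523 fibroblasts in WT_LW and 1636 in TLR9agonist_LW, with up to 176 and 149 UMIs in 1 cell. After thinning, a Sfrp2 UMI was seen in 21% of fibroblasts (18.5% to 23.7%) and in 26.9% (25.2% to 28.7%). Without thinning these shares were 48.3% and 60.8%.

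Sfrp2 was also counted outside fibroblasts, at low levels that were read beside the fibroblast markers in the same cells. T cells had 6.71 and 12.7 CPM, while the 6 fibroblast markers in them summed to 1104 and 2063 CPM. Macrophages or dendritic cells had 3.62 and 7.28 CPM of Sfrp2, beside fibroblast markers at 734 and 1430 CPM. In these 2 types both were higher in TLR9agonist_LW. In Schwann cells Sfrp2 was at 4.64 and 9.67 CPM, while the fibroblast markers summed to 6475 and 4579 CPM with 4 of 6 higher. Keratinocytes had 1.82 and 4.81 CPM of Sfrp2, a log2 ratio of 1.40 (0.62 to 2.28), below the level of the macrophages or dendritic cells in the same library, and are read as background. Sfrp2 was therefore the 1 gene past 2-fold among 5 counted in Schwann cells, where 2.9% of all genes counted were, and among 3 counted in macrophages or dendritic cells, where 3.46% were, at levels of a few CPM. The part of free RNA in these values was not tested.

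Sfrp4 (ENSMUSG00000021319, chromosome 13, 19623104 to 19632994), a second Frizzled-related protein, marked a different subset of the fibroblasts. Fibroblasts had 44.2 CPM in WT_LW, against 27.3 CPM in TLR9agonist_LW, a log2 ratio of −0.70 (−0.84 to −0.55), or −0.42 relative to the median gene. Nearly all of this came from outside the Crabp1, Prss35 and Grem1 cells, which held 5 and 11 UMIs, or 1.19 and 1.14 CPM. Clec3b, Angptl1 and Cilp cells had 103 and 74.5 CPM, a log2 ratio of −0.47 (−0.66 to −0.28), or −0.19 relative to the median gene. Fibroblasts in neither set had 38.9 and 20.4 CPM. The Sfrp4 signal came from few cells, with a UMI in 180 of 1083 fibroblasts in WT_LW and 183 of 2691 in TLR9agonist_LW, and a maximum of 31 and 81 UMIs in 1 cell. After thinning, the share of fibroblasts with a UMI was 5.41% (4.08% to 7.01%) and 1.80% (1.31% to 2.42%). No type outside the fibroblasts had more than 3.19 CPM.

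Sfrp1 (ENSMUSG00000031548, chromosome 8, 23411502 to 23449632), the third Frizzled-related protein, was highest in Schwann cells, the glia of skin nerves. Schwann cells had 676 UMIs or 116 CPM in WT_LW and 298 UMIs or 87.3 CPM in TLR9agonist_LW, a log2 ratio of −0.41 (−0.61 to −0.21), or −0.23 relative to the median gene. The thinned share of Schwann cells with a UMI was 13.7% (11.3% to 16.4%) and 12.8% (9.87% to 16.2%), a difference within counting error. Fibroblasts had 39.8 and 35.3 CPM, a log2 ratio of −0.17 (−0.31 to −0.03) that was 0.11 relative to the median gene, so its direction depended on the scaling. Sfrp1 separated the fibroblast subsets as Sfrp4 did, with 60.7 and 70.7 CPM in Clec3b, Angptl1 and Cilp cells and 13.1 and 9.20 CPM in Crabp1, Prss35 and Grem1 cells. The 6 Schwann cell markers summed to 6901 and 10821 CPM in the gated cells, with 2 of 6 higher in TLR9agonist_LW. Fibroblast markers in Schwann cells summed to 6475 and 4579 CPM, with 4 of 6 higher, and their part in the Sfrp1 level was not tested. Fewer Schwann cells were gated in TLR9agonist_LW, and Schwann cells held 32.9% of all Sfrp1 UMIs in WT_LW and 13.6% in TLR9agonist_LW, and fibroblasts held 30.7% and 52.7%. Schwann cells were 6.68% and 3.52% of all cells, and fibroblasts 9.46% and 20.4%.

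In keratinocytes Sfrp1 had the largest negative ratio of the 7 of these 10 genes counted there. It was at 33.8 CPM (279 UMIs) in WT_LW and 8.63 CPM (217 UMIs) in TLR9agonist_LW, a log2 ratio of −1.97 (−2.23 to −1.71), or −1.44 relative to the median gene. Basal cells had 20.1 and 14.9 CPM, a log2 ratio of −0.43 (−0.97 to 0.14), and differentiated cells had 9.38 and 4.39 CPM. Most of the difference lay in keratinocytes of neither sub-group, with 62.4 CPM (54.3 to 71.4) in WT_LW and 8.80 CPM (7.01 to 10.9) in TLR9agonist_LW. Among these, cells gated on the bulge hair follicle markers Cd34, Krt15, Lhx2, Postn, Sox9 and Nfatc1 held 88 Sfrp1 UMIs in 29 cells of WT_LW and 1 UMI in 20 cells of TLR9agonist_LW. That class is under the minimum of 50 cells, and a split chosen after the values were seen, so these are only values of few cells. The level in the background cells was 0.740 and 0.825 CPM.

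Dkk2 (ENSMUSG00000028031, chromosome 3, 132085292 to 132180304) encodes a Dickkopf protein that acts on LRP coreceptors and had the largest positive ratio in the fibroblast subsets among those of the 10 genes that were counted there. Crabp1, Prss35 and Grem1 cells had 30 UMIs or 7.14 CPM in WT_LW and 424 UMIs or 43.8 CPM in TLR9agonist_LW, a 6.14-fold higher level and a log2 ratio of 2.62 (2.08 to 3.20). Of the 8 genes counted in these cells it was the 1 past 2-fold, where 3.35% of all genes counted were. The 30 UMIs of WT_LW came from 15 of 268 cells and the 424 UMIs of TLR9agonist_LW from 144 of 827 cells, with up to 6 and 22 UMIs in 1 cell. After thinning, 1.91% of these cells had a Dkk2 UMI in WT_LW (0.622% to 4.40%) and 5.92% in TLR9agonist_LW (4.40% to 7.77%). These intervals meet at their ends, so the share separates the libraries less than the level does. Over 7 alternatives in processing the log2 ratio stayed between 2.32 and 2.82.

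Dkk2 differed less in the other fibroblasts. Clec3b, Angptl1 and Cilp cells had 31.0 and 49.2 CPM, a log2 ratio of 0.67 (0.36 to 0.98), and fibroblasts in neither set had 33.4 and 28.1 CPM. The level of all fibroblasts was 25.9 and 37.7 CPM, a log2 ratio of 0.54 (0.38 to 0.71). Endothelial cells were the other source, with 294 UMIs or 59.0 CPM in WT_LW and 116 UMIs or 31.9 CPM in TLR9agonist_LW, a log2 ratio of −0.89 (−1.21 to −0.57), or −0.43 relative to the median gene. Endothelial cells thus stood above fibroblasts in WT_LW, and in TLR9agonist_LW the intervals of these types overlapped. Endothelial cells held 32.0% of all Dkk2 UMIs in WT_LW and 6.59% in TLR9agonist_LW, and fibroblasts 44.6% and 70.0%. Of all cells, 5.40% and 2.70% were endothelial cells, and 9.46% and 20.4% were fibroblasts. After thinning, a Dkk2 UMI was seen in 7.79% of endothelial cells (5.78% to 10.2%) and in 3.97% (2.18% to 6.56%), and in 0.0895% and 0.268% of macrophages or dendritic cells. Of 64 lymphatic endothelial cells of WT_LW 1 cell held all 7 Dkk2 UMIs, and the 56 of TLR9agonist_LW held 0, which allows up to 5.06 CPM.

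Dkk3 (ENSMUSG00000030772, chromosome 7, 112116017 to 112159057, minus strand) was detected in the largest share of fibroblasts of the 10 genes before thinning, at 59.5% in WT_LW and 62.3% in TLR9agonist_LW, and its level there hardly differed between the libraries. It was at 122 CPM in the fibroblasts of WT_LW and 129 CPM in those of TLR9agonist_LW, a log2 ratio of 0.07 (−0.00 to 0.15), or 0.36 relative to the median gene. In Crabp1, Prss35 and Grem1 cells it was at 154 and 151 CPM, and the log2 ratio was −0.03 (−0.17 to 0.11). Clec3b, Angptl1 and Cilp cells had 145 and 108 CPM, a log2 ratio of −0.43 (−0.59 to −0.27), and fibroblasts in neither set had 94.6 and 125 CPM. Subsets with differences of opposite sign thus made up the level of all fibroblasts. Pericytes (18.9 and 15.9 CPM) and Schwann cells (13.9 and 15.8 CPM) followed, with intervals that overlapped each other in both libraries, above a background of 1.89 and 3.30 CPM. In keratinocytes Dkk3 was at 4.85 and 2.78 CPM, a ratio whose direction turned when types were taken from clusters.

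Wif1 (ENSMUSG00000020218, chromosome 10, 121033960 to 121100650), which encodes a Wnt-binding inhibitor known from dermal papilla cells, rested on a single cell. There were 190 Wif1 UMIs in 21 cells of WT_LW and 20 UMIs in 14 cells of TLR9agonist_LW. In WT_LW 1 cell held 166 of the 190, and the next highest cell held 2. Without that cell Wif1 was at 0.249 CPM in WT_LW, beside 0.153 CPM in TLR9agonist_LW, where the highest cell held 3 UMIs. No gate took the cell, which had 29487 UMIs over 6560 genes. It held 31 of the 57 Alpl UMIs of WT_LW, and further 86 UMIs of Enpp2, 32 of Rspo3, 38 of Ptch1, 110 of Crabp1, 196 of Vcan, 27 of Fst and 14 of Wnt5a, with 7 of Col1a1, 1 of Sfrp2, 1 of Corin and 0 of Sox2. A single cell was given no type name here. Of the gated types, fibroblasts held 8 and 11 Wif1 UMIs, and pericytes, endothelial cells and Schwann cells held 0 in both libraries, which allows between 0.516 and 0.933 CPM.

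Axin2 (ENSMUSG00000000142, chromosome 11, 108920349 to 108950783), a direct target of the canonical branch that also inhibits it inside the cell, is commonly read as a report of Wnt response. In WT_LW it was highest in pericytes (134 UMIs, 34.2 CPM), then in T cells (23.7 CPM) and Schwann cells (20.1 CPM), whose intervals overlapped, and then in keratinocytes (11.8 CPM) and fibroblasts (11.5 CPM). In TLR9agonist_LW the order began with fibroblasts (17.2 CPM), pericytes (16.5 CPM) and T cells (16.3 CPM), whose intervals overlapped. The background was 1.15 and 0.687 CPM. Pericytes had 34.2 and 16.5 CPM, a log2 ratio of −1.05 (−1.54 to −0.58), or −0.63 relative to the median gene. Axin2 and Wnt5a were the 2 genes at least 2-fold lower among 5 counted in pericytes, where 12.6% of all genes counted were. Keratinocytes had a log2 ratio of −1.34 (−1.74 to −0.94), or −0.81 relative to the median gene, with 97 and 117 UMIs. Schwann cells had 20.1 and 10.5 CPM, a log2 ratio of −0.93 (−1.51 to −0.38). Endothelial cells had 42 and 40 UMIs, or 8.42 and 11 CPM, and their log2 ratio of 0.38 (−0.28 to 1.04) included 0.

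Fibroblasts were the type in which Axin2 was higher in TLR9agonist_LW with an interval above 0. The 182 UMIs of WT_LW and 562 of TLR9agonist_LW gave 11.5 and 17.2 CPM, a log2 ratio of 0.58 (0.34 to 0.83), or 0.86 relative to the median gene, and other settings gave between 0.18 and 0.86. Crabp1, Prss35 and Grem1 cells had the highest level of the fibroblast subsets and hardly differed, with 23.3 and 24.9 CPM, a log2 ratio of 0.09 (−0.25 to 0.45). Clec3b, Angptl1 and Cilp cells had 8.48 and 10.5 CPM, a log2 ratio of 0.31 (−0.30 to 0.95). Fibroblasts in neither set had 6.61 CPM (4.93 to 8.66) and 15.6 CPM (13.7 to 17.7), and the difference of all fibroblasts lay mainly there. The thinned share of fibroblasts with a UMI was 1.84% (1.09% to 2.89%) and 3.16% (2.50% to 3.93%).

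Axin2 was also clearly above its background in T cells. They had 388 UMIs in WT_LW and 260 in TLR9agonist_LW, or 23.7 and 16.3 CPM, a log2 ratio of −0.54 (−0.77 to −0.31), or −0.27 relative to the median gene. T cells held 29.5% of all Axin2 UMIs in WT_LW and 17.6% in TLR9agonist_LW. After thinning, a UMI was seen in 3.57% of T cells (2.93% to 4.30%) and 2.20% (1.70% to 2.81%), beside 0.269% and 0% of macrophages or dendritic cells. The T cells of the libraries lay largely in different Leiden clusters, the 4 most unequal with 10 and 1891, 1795 and 26, 37 and 1402, and 568 and 39 cells in WT_LW and TLR9agonist_LW. The ratio thus compares T cells of different clusters, and its value with types taken from clusters was −0.49. No correction between libraries was made in the clustering, and whether the clusters are different kinds of T cells was not tested. Splits of the T cells were added after these values were seen. T cells with at least 2 of the gamma delta T cell genes Cd163l1, Blk and Sox13 had 23.4 CPM (251 cells) and 15.4 CPM (630 cells). T cells with Foxp3, the regulatory T cell factor, had 15.5 and 7.37 CPM, on 33 and 9 UMIs. Those with Cd8a and Cd8b1 had 17.2 CPM (11.8 to 24.3) and 24.0 CPM (14.7 to 37.1), on 32 and 20 UMIs. In each of these splits the intervals of the libraries overlapped. T cells with Cd4 and no Foxp3 or Cd8b1 (1181 and 767 cells) had 22.6 CPM (19.3 to 26.3) and 14.6 CPM (11.4 to 18.3). Cycling T cells had 11.5 and 11.2 CPM, and T cells outside the cycling gate 26.9 and 17.1 CPM. T cells without a UMI of the Langerhans cell gene Cd207 had 23.9 and 16.5 CPM, and cells outside the T cell gate with at least 3 Cd207 UMIs had 3.33 and 2.12 CPM.

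Genes of the same pathway were counted from lists written from general knowledge, 78 genes in all. In fibroblasts 53 were counted, of which 2 were at least 2-fold higher, beside 3.94% of all genes counted, and 6 at least 2-fold lower, beside 7.07%. Their median log2 ratio was −0.15. The higher ones were the target genes Lgr5, the R-spondin receptor, at 17.3 and 85.6 CPM (log2 ratio 2.31), and Tnfrsf19, at 14.7 and 32.1 CPM (1.12). Lgr5 was higher in each of the 3 fibroblast subsets, at 22.6 and 52.0 CPM in Crabp1, Prss35 and Grem1 cells, 8.74 and 78.7 CPM in Clec3b, Angptl1 and Cilp cells, and 18.5 and 110 CPM in neither set. The lower ones were the ligands Wnt2 (38.9 and 7.16 CPM, log2 ratio −2.44), Wnt16 (−1.44), Wnt6 (−1.39) and Wnt9a (−1.13), the inhibitor Sostdc1 (−1.34) and the target and hyaluronan receptor Cd44 (715 and 294 CPM, −1.28). Of the 16 receptor and coreceptor genes counted in fibroblasts, 0 passed 2-fold in either direction, 10 were above 0 and the median was 0.12. Beside Wnt5a, 4 of the 8 other genes of the ligand and secretion list counted in fibroblasts were at least 2-fold lower, where 7.07% of all genes counted were, 1 of 8 was above 0 and 3 of 8 were above the median gene. In Crabp1, Prss35 and Grem1 cells 1 of 6 was at least 2-fold lower, beside 3.54% of all genes counted there.

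In keratinocytes 49 of the 78 genes were counted, of which 0 were at least 2-fold higher, beside 2.47% of all genes counted. At least 2-fold lower were 14, beside 20.5%. The median log2 ratio of the 49 was −0.74, beside −0.53 over all genes counted. The 3 counted genes of the inhibitor list were all at least 2-fold lower, with Sostdc1, an inhibitor of Wnt and BMP signals, at 81.4 and 20.3 CPM (−2.0), Dkkl1 at 13.3 and 3.38 CPM (−1.98) and Igfbp4 at 58.1 and 17.7 CPM (−1.72). Of 16 receptor and coreceptor genes 6 were, among them the Frizzled genes Fzd3 (−1.61), Fzd10 (−1.59), Fzd2 (−1.51) and Fzd7 (−1.48). The ligand Wnt6 (−1.58) and the cyclins Ccnd2 (108 and 39.3 CPM, −1.46) and Ccnd1 (53.0 and 21.2 CPM, −1.32) were lower as well. Of the 49 genes 3 were above 0 and 15 were above the median gene, among them 4 of 7 genes of the ligand and secretion list and 5 of 11 targets, in a type where 20.5% of all genes counted were at least 2-fold lower.

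The genes whose levels over the 26 points were most like each of the 10 were found by Pearson correlation among 13702 genes, as a description of points that share libraries and cells. Wnt4 was most like Car12 (0.96), Fam162a (0.95) and Slc25a48 (0.95), and Wnt10a most like Dlk2 (0.90), Cbs (0.87) and Col17a1 (0.86), a hemidesmosome collagen of basal cells that was also a gate marker. Wnt5a was most like Hoxc8 (0.95), Ddr2 (0.92) and Hoxc6 (0.91). Among the inhibitors, Sfrp2 was most like Itgbl1 (0.99), the gate marker Lum (0.99) and Svep1 (0.98), Dkk3 most like Col12a1 (0.99), Thbs2 (0.98) and Mmp23 (0.97), and Sfrp2 and Dkk3 had a correlation of 0.93 with each other. Sfrp4 was most like Nrk (0.96), the gate marker Clec3b (0.94) and Fam198a (0.93), Sfrp1 most like Efs (0.93), Sema3c (0.92) and Ephb2 (0.87), and Dkk2 most like Ace (0.94), Fam13c (0.89) and Pdgfd (0.88). Axin2, at most 0.80 with Bcdin3d and Zfp949 and 0.79 with Lzic, and Wif1, at most 0.68 with Mmp9 and 0.66 with Dlk2 and Bglap3, had no close match.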

How the data were processed

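The deposited values are raw counts of UMIs by gene and cell in 1 library per group, which the authors made with Cell Ranger 4.0.0 per the file headers and limited to called cells, without normalization. The submitters' notes name fastp, Seurat and the build mm9, while 27645 of 27998 gene identifiers matched the GENCODE M21 annotation of GRCm38, from which positions are given. The deposited counts summed to 99374045 UMIs in 12800 cells of WT_LW and 132339022 UMIs in 13751 cells of TLR9agonist_LW.

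Cells with at least 500 UMIs, 300 genes and at most 15% mitochondrial UMIs were kept. A marker counted for a cell when its UMIs exceeded, at a Poisson tail of 0.01, the level given by the lower-scoring part of the library at that depth, and a type needed at least 50% of its markers and at least 3. Cells of several types were left out, which also stood in for the removal of doublets, and predicted doublets (10.2% and 10.9%) were removed as an alternative. Sub-gates needed 50% of the markers, at least 2, each above its share over the whole class in the same library. The cut-offs were therefore set separately in each library, and subset ratios compare cells chosen by cut-offs that can differ. The markers were listed at the start, but these scoring rules were set after the data had been looked at, and the genes and lists were chosen with earlier results of these data known.

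UMIs were summed per type and library, with exact Poisson intervals for CPM, exact conditional intervals for ratios and Clopper-Pearson intervals for shares, at 95%. No test was possible with 1 library per group. Genes with at least 50 UMIs over both libraries were counted. All 10 genes were described in every type. Pathway genes were named, at most 10 per type, when past 2-fold in fibroblasts or keratinocytes, and Lgr5 was followed into the subsets after its values were seen. A count of 0 was taken to allow 3 counts. Alternatives were other cell filters, a stricter gate, Leiden clusters, doublet removal, equal weight per cell, scaling to the median gene and other UMI minimums and thinning depths. The Leiden clusters were made from both libraries together, with no correction between libraries. Intervals were tested on simulated data. The tools were Python 3.11.15 with scipy 1.17.1, numpy 2.4.6, scikit-learn 1.9.0, pandas 2.3.3, leidenalg 0.10.2 and matplotlib 3.10.9.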

Additional observations from a re-analysis of the deposited data

Results flagged for a closer look

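Ratios of opposite sign in different cell types drew attention to 3 genes. Each group is 1 library, so each ratio is a single comparison and agreement among samples could not be seen. Wnt5a had a log2 ratio of TLR9agonist_LW to WT_LW of 0.86 in fibroblasts and of −1.13 in pericytes, −0.68 in keratinocytes and −0.63 in T cells, whose level of 4.09 and 2.64 CPM was close to the 2.30 and 3.02 CPM of macrophages or dendritic cells. Relative to the median gene of each type, Wnt5a was at 1.14 in fibroblasts, −0.70 in pericytes, −0.15 in keratinocytes and −0.37 in T cells. Dkk2 had 0.54 in fibroblasts and −0.89 in endothelial cells. Axin2 had 0.58 in fibroblasts and −1.34 in keratinocytes, −1.05 in pericytes, −0.93 in Schwann cells and −0.54 in T cells, while endothelial cells were at 0.38 with an interval that included 0. Apart from that of Axin2 in endothelial cells, the counting intervals of these ratios, before scaling to the median gene, lie on 1 side of 0. The difference between the types was not tested, since no replicate library was measured.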

How the results depend on the processing

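Of 413 log2 ratios under alternatives, 357 moved by less than their counting interval and 8 of the 59 ratios crossed 0 under some alternative. In 2 of these the ratio as reported had an interval on 1 side of 0, Dkk3 in keratinocytes, at 0.74 with Leiden clusters, and Sfrp1 in fibroblasts, at 0.11 relative to the median gene, and the cause was not tested. In the other 6 the interval already included 0, with ranges of −0.33 to 0.84 for Axin2 in endothelial cells, −0.49 to 0.37 for Dkk3 and −0.24 to 1.30 for Sfrp2 in pericytes, −0.04 to 0.33 for Wnt10a in fibroblasts, and, in Crabp1, Prss35 and Grem1 cells, −0.10 to 0.30 for Axin2 and −0.06 to 0.17 for Dkk3. Relative to the median gene, Dkk2 in endothelial cells was at −0.43, Sfrp1 in keratinocytes at −1.44, Wnt4 at −0.84 in keratinocytes and −1.58 in basal cells, and Wnt5a at 1.14 in fibroblasts and −0.70 in pericytes. With Leiden clusters Sfrp1 in keratinocytes was at −1.68, Wnt4 at −1.58 and Wnt5a in pericytes at −0.81. With equal weight per cell Sfrp1 was at −2.32 and Wnt4 at −1.10 in keratinocytes and −1.67 in basal cells. Under the stricter gate Sfrp1 was at −1.37, Wnt4 at −1.58 and Wnt5a in pericytes at −0.98. Without predicted doublets Wnt4 was at −1.27 in keratinocytes and −1.72 in basal cells.

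The count of the 10 genes at least 2-fold higher in fibroblasts went from 0 to 1 relative to the median gene, and that of lower ones from 0 to 1 with Leiden clusters and with equal weight per cell. In keratinocytes the higher count went from 1 to 2 with Leiden clusters and to 0 with equal weight or a minimum of 200 UMIs, and the lower count from 3 to 1 relative to the median gene. Of the other pathway genes in fibroblasts, the higher count went from 2 to 1 with equal weight and to 4 relative to the median gene, and the lower count from 6 to 11 with a minimum of 20 UMIs. In keratinocytes the higher count went from 0 to 2 with Leiden clusters or relative to the median gene and to 1 with equal weight, without predicted doublets or under the stricter gate, and the lower count from 14 to 6 relative to the median gene. Relative to the median gene, 798 of all 12611 genes counted in fibroblasts were at least 2-fold higher and 493 at least 2-fold lower. On the same scale, 688 of all 10934 genes counted in keratinocytes were higher and 641 lower. Shares over all genes under the other settings are not given here, so those counts have no background beside them. Axin2 in fibroblasts ranged from 0.18 to 0.86 over 7 alternatives. Of 826 shares of cells under alternatives 592 moved by less than their interval. No paired analysis was possible because each group is 1 library, and a library cannot be left out. Wif1 and the sub-groups with few UMIs are limited by depth.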
